A study of Mus musculus with 2 samples.

Results

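Transcripts of 8 genes of fat cells and of lipid uptake were followed in gastrocnemius muscle from the calf of B6CASTF1/J mice, females 25 days old. The genes were Adipoq, Cfd, Plin1, Plin4, Scd1, Fabp4, Lpl and Cd36, chosen by gene name, and all 8 had reads in both libraries among 15521 annotated genes with a read in either. B6CASTF1/J animals are hybrids of a C57BL/6J and a CAST parent, and the deposited counts do not separate the alleles. There was 1 group with 2 biological replicates, animal 4 in replicate 2 and animal 3 in replicate 1, both under the same donor record, each a long-read RNA library from 2 µg of total RNA. No treatment or genotype was contrasted, so the comparisons are between libraries and not between conditions, and p-values measure the difference between these libraries alone. In a piece of whole muscle, fewer cells of a type and less RNA per cell cannot be told apart.

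Fat cells lie between and around muscle fibres, store triglyceride in droplets coated by perilipins, and secrete hormones and enzymes such as adiponectin and adipsin. Muscle fibres take up fatty acids too: lipoprotein lipase on the capillary wall frees fatty acids from circulating lipoproteins, and CD36 and fatty acid binding proteins carry them into and through endothelial cells, muscle fibres and fat cells. Adipoq, Cfd and Plin1 are genes of fat cells in the main, while Lpl, Cd36, Plin4, Fabp4 and Scd1 are also expressed by other cells of a muscle.

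Cfd was read in near equal shares from acceptors 3 bases apart at the start of its exon 2, both in the annotation. The spliced sequences across that junction and across the start of Lpl exon 4 are shown because reads of both forms were counted in both libraries. They run 5′ to 3′, 12 bases of each come from the exon before, taken from the GENCODE M21 transcripts (mm10), and capitals mark the 3 bases that only the longer exon holds.
Cfd-201: cggctgtatgtgCAGcacagccccgaggcc
Cfd-202: cggctgtatgtgcacagccccgaggcc
Lpl-201: aactggatggagGAGgagtttaactacccc
Lpl unannotated chain: aactggatggaggagtttaactacccc
The Cfd exon is chr10:79891456-79891612 (plus strand) in Cfd-201 and begins at 79891459 in Cfd-202. The Lpl exon is chr8:68894627-68894738 (plus strand) in Lpl-201 and begins at 68894630 in the chain outside the annotation. Both sites are in coding sequence, and the 3 bases of Lpl repeat the 3 bases on either side of them.

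Sequence before the transcript start is shown for the 3 genes most tied to fat cells, which were all lower in replicate 2. Windows of 250 bases before the RefSeq start (GRCm38.p6, the build of mm10) were found for 5 of the 8 genes: Adipoq, Cfd, Plin1, Plin4 and Cd36. For Plin1 the 127 bases that lie in annotated first exons are left out. Capitals mark matches, on either strand, to the CCAAT box (CCAAT) or to a core often bound by C/EBP factors (TTGCNNAA).
Adipoq, chr16:23146286-23146535, plus strand: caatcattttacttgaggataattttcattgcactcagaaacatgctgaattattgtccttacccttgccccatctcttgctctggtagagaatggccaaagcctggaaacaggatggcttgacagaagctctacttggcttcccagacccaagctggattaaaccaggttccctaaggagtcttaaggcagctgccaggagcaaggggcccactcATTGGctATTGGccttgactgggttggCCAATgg
Cfd, chr10:79890603-79890852, plus strand: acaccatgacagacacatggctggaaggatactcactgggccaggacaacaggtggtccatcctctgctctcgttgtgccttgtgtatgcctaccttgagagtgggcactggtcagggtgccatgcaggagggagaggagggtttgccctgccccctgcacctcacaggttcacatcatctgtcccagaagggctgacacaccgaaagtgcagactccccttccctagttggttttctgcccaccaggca
Plin1, chr7:79732904-79733026, minus strand: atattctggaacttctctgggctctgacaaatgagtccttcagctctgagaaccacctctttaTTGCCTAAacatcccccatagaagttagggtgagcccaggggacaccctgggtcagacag
The Adipoq window held 3 CCAAT matches, beginning 34, 27 and 7 bases before the start. The full Plin1 window held 2 TTGCNNAA matches, beginning 187 and 58 bases before the start, and the Cfd window held neither motif. Of 32851 RefSeq windows of 250 bases, 33.8% held CCAAT and 9.56% held TTGCNNAA. None of the 5 windows held TATAAA, which 12.4% of all windows held, or the PPAR-RXR direct repeat, which is AGGTCA doubled with 1 base between and was found in 11 windows in all. AGGTCA alone, which that repeat contains, was in the Cd36 window and in 14.0% of all windows, and the E-box CANNTG was in all 5 windows and in 66.2% of all windows. A match is a run of letters and not a measured binding site.

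Replicate 2 held 1557594 mouse reads and replicate 1 held 1069771, after reads of ERCC spike-in RNAs, 31067 in replicate 2 and 30993 in replicate 1, were set aside. The 8 genes took 1101 reads in replicate 2 and 1013 in replicate 1, or 707 CPM in replicate 2 and 947 CPM in replicate 1, where CPM are counts scaled to the mouse reads of each library. For a gene without reads, 3 counts set the detection floor, at 1.93 CPM in replicate 2 and 2.80 CPM in replicate 1. Acta1, which encodes skeletal actin and marks muscle, had 117236 reads in replicate 2 and 79155 in replicate 1. Bounds after a value are 95% limits by the exact Clopper-Pearson method, which like the floor take in counting error alone. How often such intervals stand apart over all genes was not counted.

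The adipokine genes Adipoq and Cfd, the perilipin genes Plin1 and Plin4 and the desaturase gene Scd1 were lower in replicate 2 by read counts, Cd36 was higher, and Lpl and Fabp4 did not pass the test. Log2 ratios put replicate 2 over replicate 1 after adding 0.5 reads to each count, and each gene was tested by Fisher's exact test against all other mouse reads, two-sided, with Benjamini-Hochberg adjustment over 8892 genes with 10 or more reads. At an adjusted p of 0.05, 5 of the 8 genes were lower, where 14.9% of all genes tested were, and 1 was higher, where 11.1% were. In either direction 26.0% of all genes passed. The 8 genes were chosen with earlier results of these data known, so setting them against these shares is a description and not an independent test. The median log2 ratio of the 8 genes was -1.32, and that of all genes tested was -0.18.

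**Figure D1:**
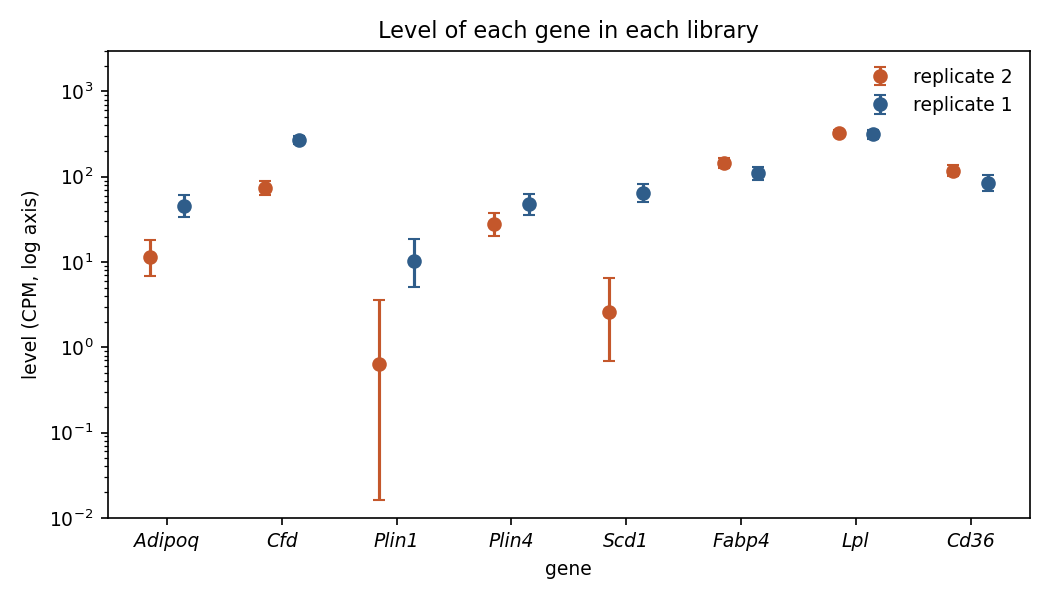
Level of each gene in CPM (log axis) in replicate 2 (left of each pair) and replicate 1, with exact 95% counting intervals. Intervals of the libraries stand apart for Adipoq, Cfd, Plin1 and Scd1, and the share of all genes for which they do was not counted. Lpl lies at 327 CPM in replicate 2 and 313 CPM in replicate 1.

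That test treats reads as independent molecules. With a common dispersion of 0.132 estimated from both libraries (a coefficient of variation of 0.363 between animals and libraries), edgeR's exact test with Benjamini-Hochberg adjustment called 15 genes in all, of which 4 were lower in replicate 2 (0.0450% of those tested). Scd1 was the only member among them, with an adjusted p of 0.0126 by edgeR's exact test, and every other member had an adjusted p of 1. That dispersion was estimated from the same 2 libraries taken as 1 group, so it takes in the differences under test and leaves few genes to pass. At that spread, the differences given below for the other members did not pass after adjustment. At an unadjusted p under 0.05 by edgeR's exact test, 4 members were lower and 0 higher. Among all 8892 genes tested, 192 were lower and 154 higher at that level.

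Completeness of reads and transcript length moved with the libraries. Complete chains, those deposited as annotated or as new chains of splice sites, took 78.4% of mouse reads in replicate 2 and 87.1% in replicate 1, and short transcripts had higher ratios than long ones. Annotated chains alone ran the other way, at 67.7% in replicate 2 and 63.7% in replicate 1, while chains with new splice sites were 2.50% in replicate 2 and 18.3% in replicate 1. The fitted trend of the log2 ratio was 0.60 at the 871 bases of Cfd and -0.64 at the 4832 bases of Scd1. With this trend removed and an exact binomial test over 8752 genes, 4 members were lower (5.47% of genes tested were) and 2 were higher (7.51% of genes were), with a median of -1.22. Plin4 then had a log2 ratio of -0.12, and Lpl joined Cd36 among the genes that were higher. The part of read completeness in the remaining differences was not tested.

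**Figure D2:**
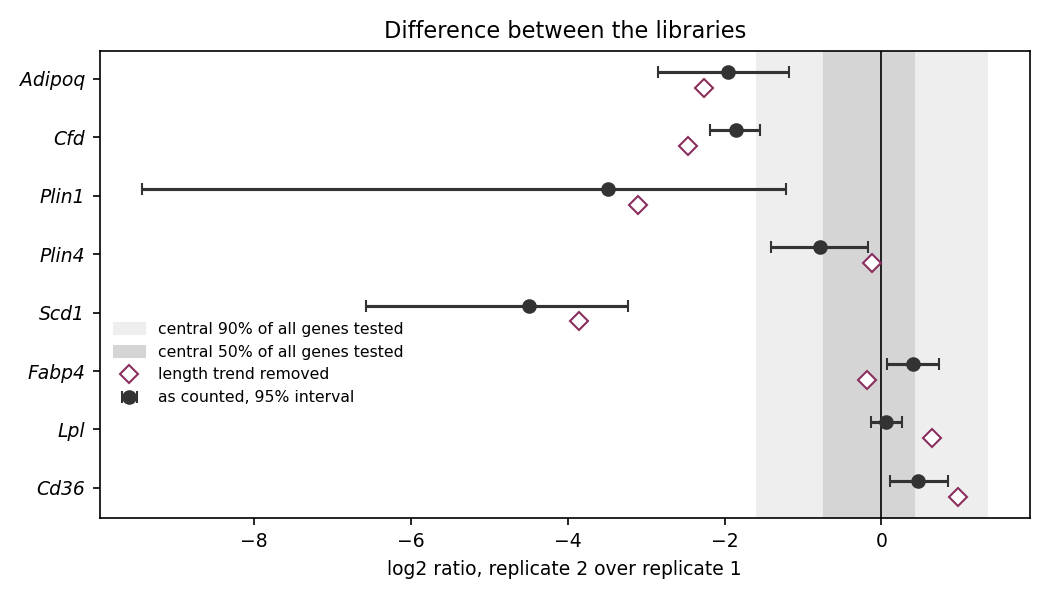
Log2 ratio of each gene, replicate 2 over replicate 1, as counted (circles with exact 95% intervals) and with the length trend removed (diamonds), over bands for the central 50% and 90% of all 8892 genes tested. Scd1, Plin1, Adipoq and Cfd lie left of the central 90% by either measure, and Lpl, Cd36 and Fabp4 lie within it.

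The secreted proteins come first. Adipoq (ENSMUSG00000022878.5, chr16:23146536-23158028, plus strand) encodes adiponectin, a hormone of fat cells. It had 18 reads in replicate 2 and 49 in replicate 1. These are 11.6 CPM in replicate 2 and 45.8 CPM in replicate 1, with a mean of 28.7 ± 24.2 CPM (SD, n = 2). Replicate 1 stood 3.96 times as high, and the counting intervals of 6.85 to 18.3 CPM in replicate 2 and 33.9 to 60.6 CPM in replicate 1 did not overlap. The log2 ratio was -1.96 (-2.85 to -1.18), with an adjusted p of 1.84e-06 by Fisher's exact test. Both of its introns were crossed by 13 of 18 reads in replicate 2 (72.2%, 46.5 to 90.3%) and by 40 of 49 in replicate 1 (81.6%, 68.0 to 91.2%), always as the annotated 3-exon transcript Adipoq-201. The other reads, 5 in replicate 2 and 9 in replicate 1, lay wholly in its last exon.

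Cfd (ENSMUSG00000061780.6, chr10:79890853-79892655, plus strand) encodes adipsin, a serine protease of the alternative complement pathway that fat cells secrete. It had 116 reads in replicate 2 and 290 in replicate 1. These are 74.5 CPM in replicate 2 and 271 CPM in replicate 1, with a mean of 173 ± 139 CPM (SD, n = 2). Replicate 1 was 3.64 times as high, close to the ratio of Adipoq, with no overlap of the intervals. This gave a log2 ratio of -1.86 (-2.19 to -1.55) with an adjusted p of 5.65e-34 by Fisher's exact test, and -2.46 with the length trend removed. Reads of Cfd were nearly all complete, 95.7% (90.2 to 98.6%) in replicate 2 and 95.2% (92.0 to 97.3%) in replicate 1.

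The Cfd isoforms printed above had closely similar shares in both animals. The shorter exon 2, without the bases CAG, was in 62 of 110 reads in replicate 2 (56.4%, 46.6 to 65.8%) and in 149 of 270 in replicate 1 (55.2%, 49.0 to 61.2%), a mean of 55.8% ± 0.833 (SD, n = 2). The choice changes the coding length to 774 bases in Cfd-202, against 777 in Cfd-201, so the reading frame is kept. As whole chains, Cfd-202 took 61 of 111 complete reads in replicate 2 and 146 of 276 in replicate 1, and Cfd-201 took 48 in replicate 2 and 121 in replicate 1. The gene's level therefore differed between the libraries by several-fold while the shares of its isoforms differed by 2.06 percentage points, with an adjusted p of 1 by Fisher's exact test over 3273 genes, of which 0.733% passed.

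**Figure D3:**
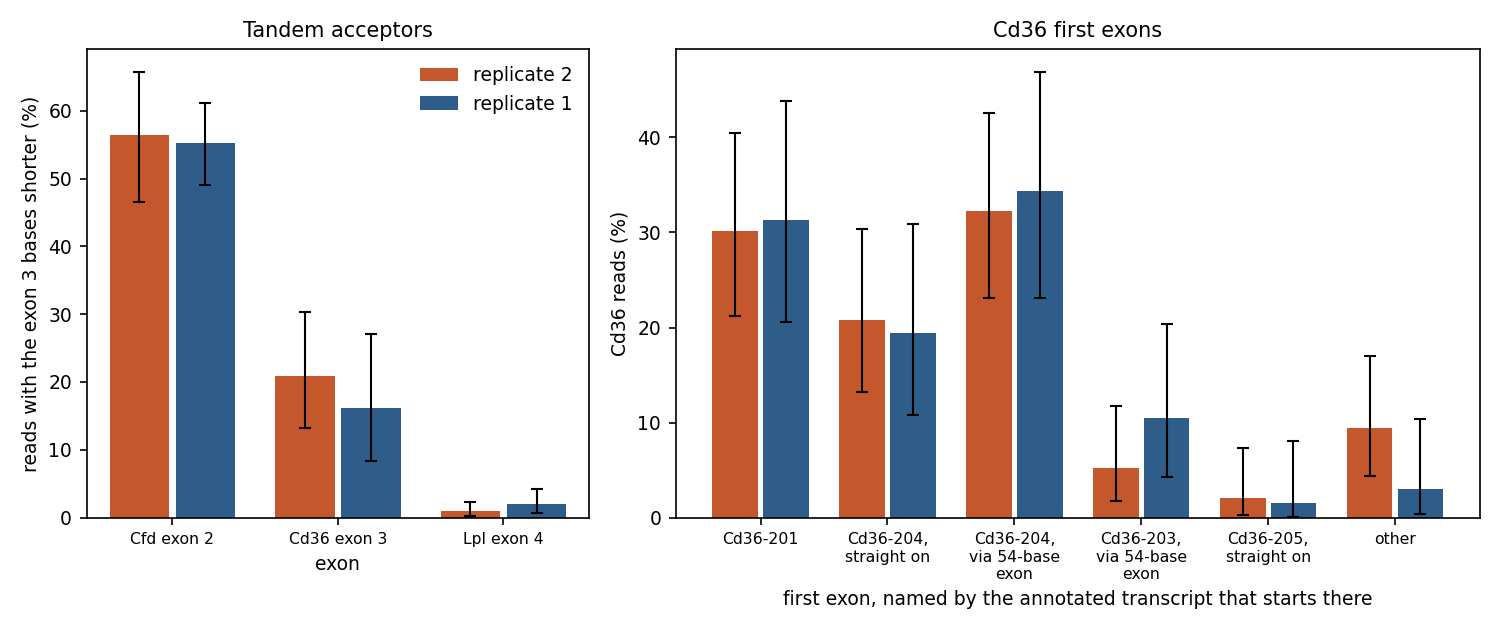
Left, percent of reads with the exon 3 bases shorter at the acceptors of Cfd, Cd36 and Lpl. Right, percent of the Cd36 reads spliced into exon 2, by first exon. Replicate 2 is left of replicate 1 in each pair, and bars carry exact 95% intervals. The libraries' intervals overlap at every choice, and Cfd is the only one of the 3 acceptors where the shorter exon takes more reads than the longer.

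The droplet coat genes differed in how they were read. Plin1 (ENSMUSG00000030546.14, chr7:79720218-79732903, minus strand) encodes perilipin 1, which coats the droplets of fat cells and controls access of lipases. It had 1 read in replicate 2 and 11 in replicate 1. These are 0.642 CPM in replicate 2 and 10.3 CPM in replicate 1, with a mean of 5.46 ± 6.82 CPM (SD, n = 2). Counting left the log2 ratio of -3.48 with a wide interval of -9.43 to -1.22, and the adjusted p was 0.00277 by Fisher's exact test. The read of replicate 2 was a complete Plin1-201. In replicate 1, 7 reads were complete, 5 of them Plin1-206, and the other 4 were incomplete.

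Plin4 (ENSMUSG00000002831.13, chr17:56100591-56109803, minus strand) encodes perilipin 4, found on droplets of fat cells and in muscle. It had 43 reads in replicate 2 and 51 in replicate 1. These are 27.6 CPM in replicate 2 and 47.7 CPM in replicate 1, with a mean of 37.6 ± 14.2 CPM (SD, n = 2). The log2 ratio was -0.79 (-1.41 to -0.17), with an adjusted p of 0.0360 by Fisher's exact test, and the intervals of the levels overlapped. This call was the least stable of the 5: with edgeR's TMM scaling the log2 ratio was -0.62 and the adjusted p 0.144 by Fisher's exact test.

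Most Plin4 reads held no splice junction. Unspliced reads outside the annotation, all of them after the stop codon, were 29 of 43 (67.4%, 51.5 to 80.9%) in replicate 2 and 32 of 51 (62.7%, 48.1 to 75.9%) in replicate 1. Complete chains were 5 reads (11.6%, 3.89 to 25.1%) in replicate 2 and 6 (11.8%, 4.44 to 23.9%) in replicate 1, and none of them was an annotated transcript. This class goes by splice sites and also holds chains without the 5′ exons, such as a 2-exon chain with 1 read in replicate 2. An 8-exon chain took 1 read in replicate 2 and 3 in replicate 1. The annotated intron 5 of Plin4-201 (chr17:56105523-56106116, 594 bases) was crossed by 0 reads in both libraries. Reads that crossed introns 4 and 6 on either side of it numbered 1 in replicate 2 and 5 in replicate 1. Of these, 1 in replicate 2 and 4 in replicate 1 ran through the interval without any intron, as an exon of 3958 bases, where the annotation has a longest exon of 2106 bases. Plin4 overlaps Hdgfl2 on the opposite strand, which had 29 reads in replicate 2 and 36 in replicate 1, and the sources used here do not say whether counting used strand.

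Scd1 (ENSMUSG00000037071.3, chr19:44394455-44407879, minus strand) encodes stearoyl-CoA desaturase, which makes monounsaturated fatty acids for triglyceride. It showed the widest difference of the 8 genes, with 4 reads in replicate 2 and 69 in replicate 1. These are 2.57 CPM in replicate 2 and 64.5 CPM in replicate 1, with a mean of 33.5 ± 43.8 CPM (SD, n = 2). Replicate 1 was 25.1 times as high, and the intervals of 0.700 to 6.58 CPM in replicate 2 and 50.2 to 81.6 CPM in replicate 1 were far apart. In log2 terms the ratio was -4.49 (-6.57 to -3.23), with an adjusted p of 7.52e-21 by Fisher's exact test. A full-length Scd1-201 was read 1 time in replicate 2 and 42 times in replicate 1. Unspliced reads after the stop codon were 3 of the 4 reads in replicate 2 and 20 of the 69 in replicate 1.

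Among the uptake genes, Lpl (ENSMUSG00000015568.16, chr8:68880491-68907448, plus strand) encodes lipoprotein lipase. It had 510 reads in replicate 2 and 335 in replicate 1. These are 327 CPM in replicate 2 and 313 CPM in replicate 1, with a mean of 320 ± 10.1 CPM (SD, n = 2). It had the most reads of the 8 genes and the nearest levels between the animals. The log2 ratio was 0.06 (-0.14 to 0.27), and the adjusted p was 0.740 by Fisher's exact test. With the length trend removed the ratio was 0.65, and with spike-in reads as the scale it was 0.60.

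Most Lpl reads spanned the gene. Each of its 9 introns was crossed by 83.3 to 91.2% of its reads in replicate 2 and by 91.0 to 95.8% in replicate 1. The annotated 10-exon Lpl-201 was 414 of 426 complete reads in replicate 2 (97.2%, 95.1 to 98.5%) and 295 of 307 in replicate 1 (96.1%, 93.3 to 98.0%). The shorter exon 4 printed above, without the bases GAG, was in 4 of 435 reads in replicate 2 (0.920%, 0.251 to 2.34%) and in 6 of 311 in replicate 1 (1.93%, 0.711 to 4.15%). A different chain outside the annotation removed an intron of 656 bases (chr8:68905164-68905819) from the last exon, chr8:68904506-68906934, which is 3′ UTR, and that intron was in 4 reads in replicate 2 and 7 in replicate 1. Unspliced reads after the stop codon were 43 (8.43% of the gene) in replicate 2 and 14 (4.18%) in replicate 1.

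Cd36 (ENSMUSG00000002944.15, chr5:17781690-17888801, minus strand) encodes a scavenger receptor that takes up long-chain fatty acids. It had 184 reads in replicate 2 and 91 in replicate 1. These are 118 CPM in replicate 2 and 85.1 CPM in replicate 1, with a mean of 102 ± 23.4 CPM (SD, n = 2). Its log2 ratio was 0.47 (0.10 to 0.85) with an adjusted p of 0.0404 by Fisher's exact test, and the intervals of the levels overlapped slightly. The excess in replicate 2 lay in incomplete reads. Over complete chains alone the log2 ratio was 0.13 with an adjusted p of 0.763, and over annotated models alone it was -0.32 with an adjusted p of 0.522, both by Fisher's exact test. In the other direction, the ratio was 0.98 with the length trend removed (adjusted p of 1.29e-06 by the exact binomial test) and 1.01 with spike-in reads as the scale (adjusted p of 2.46e-07 by Fisher's exact test).

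A 2-exon chain at the 3′ end of Cd36 took 68 of 184 reads in replicate 2 (37.0%, 30.0 to 44.4%) and 8 of 91 in replicate 1 (8.79%, 3.87 to 16.6%). Over all read classes this share differed by 28.2 percentage points, with an adjusted p of 7.27e-06 by Fisher's exact test, where 12.8% of 4014 genes passed. Its junction, number 14 from the 5′ end, was crossed by 92.9% of reads in replicate 2 and 95.6% in replicate 1. The next junction upstream was crossed by 57.1% in replicate 2 and 86.8% in replicate 1. The share fell more slowly further upstream, to 52.2% in replicate 2 and 74.7% in replicate 1 at junction 3. Complete reads were 53.3% (45.8 to 60.6%) in replicate 2 and 74.7% (64.5 to 83.3%) in replicate 1.

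**Figure D4:**
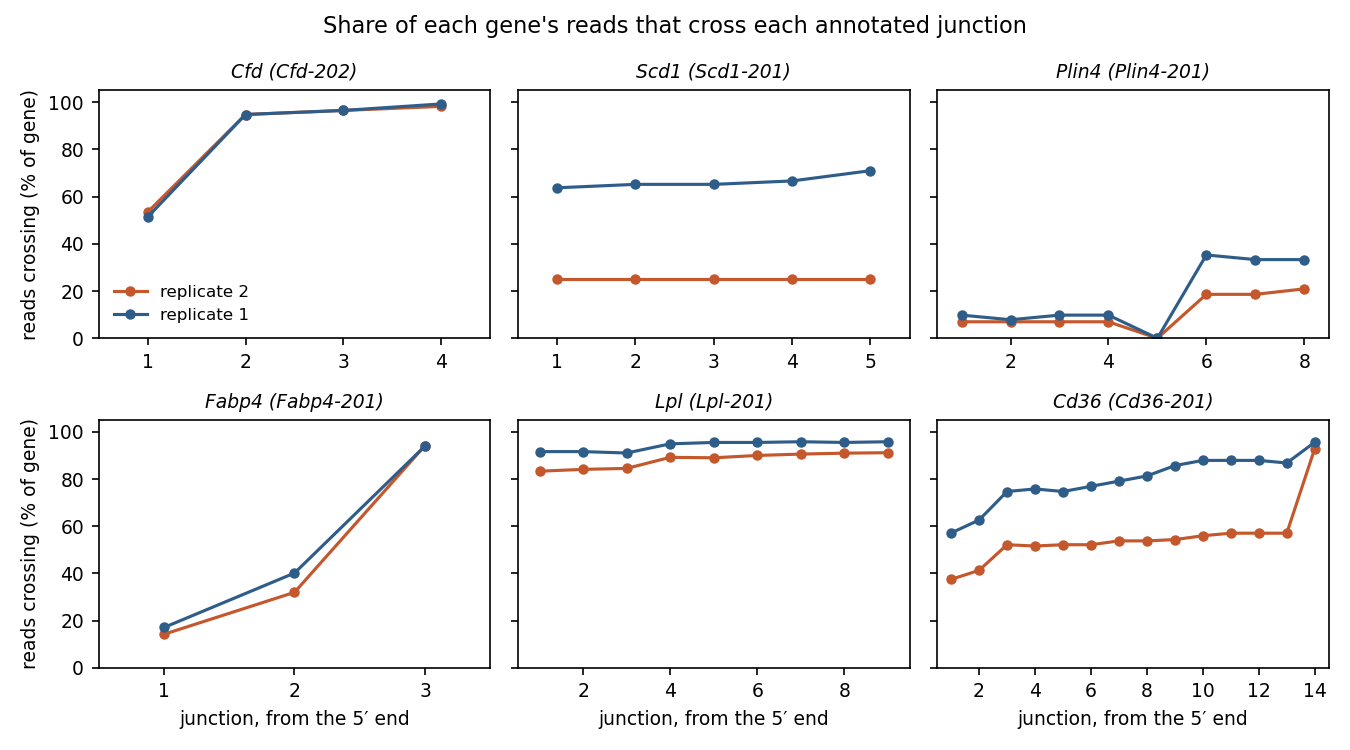
Percent of each gene's reads that cross each annotated junction, numbered from the 5′ end, in replicate 2 and replicate 1. Cd36 in replicate 2 drops to 57.1% at junction 13, Fabp4 drops toward its 5′ end in both libraries, and no Plin4 read crosses junction 5.

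The complete reads of Cd36 began at several first exons, whose shares had wide intervals that overlapped between the animals. The most read complete chain, with 16 exons and 3453 bases, is outside the annotation but uses annotated introns alone, and took 26 of 98 complete reads in replicate 2 (26.5%, 18.1 to 36.4%) and 19 of 68 in replicate 1 (27.9%, 17.7 to 40.1%). It joins the first exon of Cd36-204 (chr5:17849657-17849792) to an internal exon of 54 bases (chr5:17835618-17835671), which ends at the same donor as the first exon of Cd36-201 (chr5:17835618-17835696). Of the reads spliced into exon 2 of Cd36-201, this path took 31 of 96 in replicate 2 and 23 of 67 in replicate 1. Reads that stopped short of that junction were not counted. The first exon of Cd36-201 took 29 reads in replicate 2 and 21 in replicate 1. A read from an upstream start that broke off in this exon would be counted there too. The first exon of Cd36-204 without the 54-base exon took 20 in replicate 2 and 13 in replicate 1. No first exon had intervals that stood apart between the libraries. The first exon of Cd36-203 (chr5:17888711-17888747) through the 54-base exon took 5 reads in replicate 2 and 7 in replicate 1. That of Cd36-205, straight to exon 2, took 2 reads in replicate 2 and 1 in replicate 1. All other paths into exon 2 took 9 reads in replicate 2 (9.38%, 4.38 to 17.1%) and 2 in replicate 1 (2.99%, 0.364 to 10.4%). In exon 3 of Cd36-201, in the 5′ UTR, an acceptor 3 bases downstream that leaves out the bases TAG was used by 20 of 96 reads in replicate 2 (20.8%, 13.2 to 30.3%) and 11 of 68 in replicate 1 (16.2%, 8.36 to 27.1%).

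Fabp4 (ENSMUSG00000062515.3, chr3:10204088-10208576, minus strand) encodes a fatty acid binding protein of fat cells that capillary endothelium also makes. It had 225 reads in replicate 2 and 117 in replicate 1. These are 144 CPM in replicate 2 and 109 CPM in replicate 1, with a mean of 127 ± 24.8 CPM (SD, n = 2). The log2 ratio was 0.40 (0.07 to 0.74), and the adjusted p of 0.0566 by Fisher's exact test missed the threshold. The ratio was 0.57 with TMM scaling, with an adjusted p of 0.00335 by Fisher's exact test. Its sign turned with the length trend removed, to -0.18, which did not pass. Fabp4 thus stood apart from Adipoq, Cfd and Plin1 in direction as counted, and the difference between them was not tested.

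Most Fabp4 reads stopped short of the 5′ end. Its last junction was crossed by 94.2% of reads in replicate 2 and 94.0% in replicate 1, the middle junction by 32.0% in replicate 2 and 40.2% in replicate 1, and the 5′-most junction by 14.2% in replicate 2 and 17.1% in replicate 1. Complete reads were 43 of 225 in replicate 2 (19.1%, 14.2 to 24.9%) and 27 of 117 in replicate 1 (23.1%, 15.8 to 31.8%). Of these, 31 in replicate 2 and 20 in replicate 1 were the spliced Fabp4-201. The other annotated form, Fabp4-202, is an unspliced model of 4231 bases that the annotation labels as a retained intron. It took 11 reads in replicate 2 and 6 in replicate 1, which count here as complete. Over complete chains alone the mean level of Fabp4 was 32.1 CPM, against 127 CPM over all reads.

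As counted, Lpl led in both libraries, at 327 CPM in replicate 2 and 313 CPM in replicate 1. Each long read counts once whatever its length, so division by length ranks short transcripts higher and does not measure molecules. Per kilobase of each gene's most read complete chain, the order of the genes differed between the animals. In replicate 2 Fabp4 led at 161 CPM per kilobase, followed by Cfd at 85.5, Lpl at 79.6 and Cd36 at 34.2. In replicate 1 Cfd led at 311 CPM per kilobase, followed by Fabp4 at 122, Lpl at 76.1 and Adipoq at 35.5. Scd1 and Plin1 were lowest in replicate 2, at 0.531 and 0.228 CPM per kilobase, and Plin4 and Plin1 in replicate 1, at 7.51 and 3.65.

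As counted, other genes of fat cells had a median near that of the members. The lists here and below, like the members, were chosen with earlier results of these data known. A likeness between them is therefore no independent support. Of 16 further adipocyte genes 12 were tested, and 4 were lower in replicate 2, 1 was higher and 7 did not pass, with a median log2 ratio of -1.25. Among all genes tested 14.9% were lower and 11.1% higher, with a median of -0.18, and the lists below can be read against those shares. With the length trend removed 3 of these genes were lower and 1 was higher, with a median of -0.95 against -1.22 for the members. By edgeR's exact test at the common dispersion none passed after adjustment, and 3 were lower and 1 higher at an unadjusted p under 0.05. Among all 8892 genes tested, 192 were lower and 154 higher at that unadjusted level, which is also the background for the lists below. The droplet protein gene Cidec was lower with 31 reads in replicate 2, against 100 in replicate 1 (-2.22 on the log2 scale), and Pck1, for glycerol synthesis, was lower with 2 in replicate 2 against 28 in replicate 1 (-4.05). The hormone genes Lep and Retn, for leptin and resistin, were both lower, Lep with 5 reads in replicate 2 against 17 in replicate 1 and Retn with 8 in replicate 2 against 18 in replicate 1. Lep missed the threshold once the length trend was removed (adjusted p of 0.0666 by the exact binomial test). Pparg, the master regulator of fat cells, had 5 reads in replicate 2 and 10 in replicate 1 and did not pass, nor did the retinol saturase gene Retsat with 75 in replicate 2 and 68 in replicate 1. Car3, a carbonic anhydrase abundant in fat and slow muscle, went the other way, with 7569 reads in replicate 2 against 1822 in replicate 1 (1.51). Ucp1, the heat-producing uncoupler of brown fat, had 0 reads in both libraries.

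Genes that make fatty acids and triglyceride had a median log2 ratio of -0.80, and of -0.51 with the length trend removed. Of 16 such genes 15 were tested, with 7 lower, 1 higher and 7 not passing. With the length trend removed 3 of these genes were lower and 1 was higher, and by edgeR's exact test none passed after adjustment and 1 was lower at an unadjusted p under 0.05. Fasn, for fatty acid synthase, was lower with 5 reads in replicate 2, against 57 in replicate 1 (-3.93 on the log2 scale). Gpam, for the first step of triglyceride synthesis, was lower with 128 reads in replicate 2 against 199 in replicate 1 (-1.18, and -0.62 with the length trend removed). Me1, for malic enzyme, was lower with 267 in replicate 2 against 237 in replicate 1 (-0.37, relative to library size), but with the length trend removed its ratio was 0.11 and did not pass. Dgat2, for the last step, had 213 reads in replicate 2 against 165 in replicate 1 (-0.17) and did not pass. Mlxipl, for the carbohydrate-sensing factor ChREBP, was higher with 233 reads in replicate 2, against 111 in replicate 1 (0.52 on the log2 scale, and 1.06 with the length trend removed).

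Among other uptake and transport genes, 11 of 13 were tested, with 3 lower, 1 higher and 7 not passing, and a median of -0.81. After removal of the length trend the counts lower and higher were again 3 and 1, with a median of -0.54. None of these, nor of the droplet and lipolysis genes below, passed edgeR's exact test after adjustment, and at an unadjusted p under 0.05 the uptake genes had 0 and the droplet genes 1. Fabp3, the fatty acid binding protein of muscle, was higher with 2564 reads in replicate 2, against 767 in replicate 1 (1.20 on the log2 scale, and 0.56 with the length trend removed). The acyl-CoA synthetase gene Acsl1 was lower, with 147 reads in replicate 2 against 239 in replicate 1 (-1.24, and -0.68 with the length trend removed), as was the caveolin gene Cav1 with 120 in replicate 2 against 147 in replicate 1 (-0.83, and -0.54 with the trend removed). The caveolar gene Cavin1 had 87 in replicate 2 against 81 in replicate 1 (-0.44) and did not pass, but with the length trend removed it was lower at -1.22 (adjusted p of 2.19e-06 by the exact binomial test). Gpihbp1, the capillary anchor of lipoprotein lipase, had 34 reads in replicate 2 and 22 in replicate 1, a log2 ratio of 0.07, and of -0.56 with the length trend removed, and passed neither test. Of 13 further droplet and lipolysis genes, 4 were lower, 1 was higher and 8 did not pass, with a median of -0.63. After removal of the length trend 2 were lower and 1 was higher, with a median of -0.23. Cidec and Lipe stand in this list and in that of fat cells. The droplet-forming gene Fitm1, of muscle, was higher with 575 reads in replicate 2 against 221 in replicate 1 (0.84, and 0.31 with the length trend removed). Its relative Fitm2 was lower with 86 in replicate 2 against 105 in replicate 1 (-0.83), but not with the trend removed (-0.26, not passing). The lipase gene Pnpla2 was lower with 166 reads in replicate 2 against 177 in replicate 1 (-0.63), and with the trend removed it was at -0.31 and did not pass. The muscle perilipin gene Plin5 had 143 in replicate 2 against 109 in replicate 1 (-0.15) and did not pass.

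**Figure D5:**
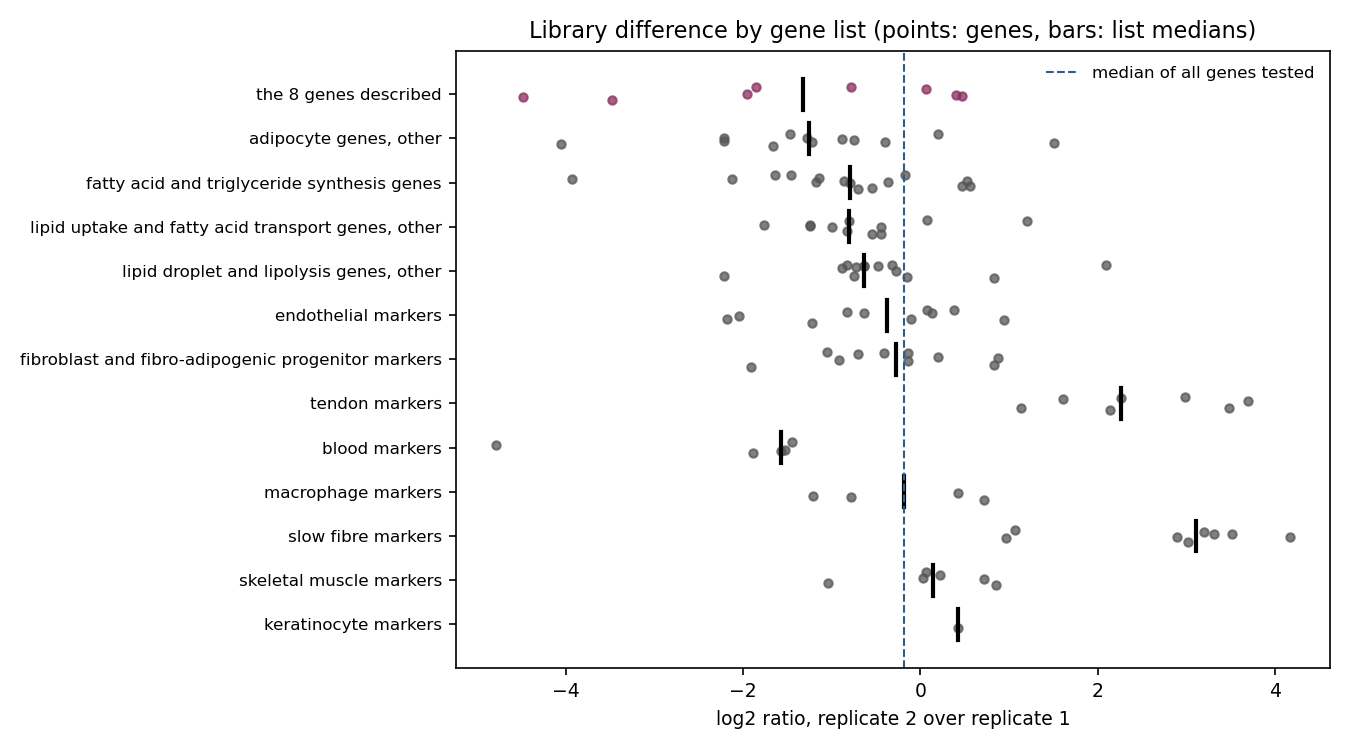
Log2 ratio, replicate 2 over replicate 1, of each gene tested (points) by list, with list medians (bars) and the median of all genes tested (dashed). The 8 genes described and the further adipocyte genes have medians of -1.32 and -1.25, and slow fibre and tendon markers have medians of 3.11 and 2.27.

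Markers of other cell types moved with the libraries as well, and their part in the differences above was not tested. Calls here are by Fisher's exact test. By edgeR's exact test at the common dispersion 3 of the slow fibre markers (Tnnt1, Tnnc1 and Myl3) passed after adjustment. No gene of the other marker lists did. At an unadjusted p under 0.05 by edgeR's exact test, 6 slow fibre markers and 4 tendon markers were higher. At that level 2 blood markers, 2 endothelial markers and 1 fibroblast marker were lower. Slow fibre markers were higher in 8 of 8 genes, with a summed level of 8121 CPM in replicate 2 and 1056 CPM in replicate 1, led by Tnnt1 with 5366 reads in replicate 2 and 204 in replicate 1. Tendon markers were higher in 7 of 7 genes tested, at 455 CPM in replicate 2 and 86.9 CPM in replicate 1, led by Fmod with 259 reads in replicate 2 and 22 in replicate 1. Blood markers were lower in 5 of 5 genes tested, at 415 CPM in replicate 2 and 1235 CPM in replicate 1, and Slc4a1 was at 0 in both. Hba-a1, a near copy of Hba-a2 from which its reads may not be separable, had 349 reads in replicate 2 and 657 in replicate 1. Capillary endothelium, which also expresses Fabp4 and Cd36, had 2 markers lower, 1 higher and 7 not passing of 10, at 174 CPM in replicate 2 and 213 CPM in replicate 1, with Esam at 72 reads in replicate 2 and 45 in replicate 1. Fibroblast markers had 2 lower, 2 higher and 6 not passing of 10, at 2627 CPM in replicate 2 and 4398 CPM in replicate 1, with Col3a1 at 1099 reads in replicate 2 and 2851 in replicate 1. Without Col3a1, left out after its values were seen, the sum was 1922 CPM in replicate 2 and 1733 CPM in replicate 1, and Dcn and Col1a2 were the markers that were higher. Macrophage markers had 1 higher and 3 not passing of 4 tested, with a sum of 75.1 CPM in replicate 2 against 60.8 CPM in replicate 1. Skeletal muscle markers had 1 lower, 4 higher and 1 not passing of 6, at 181624 CPM in replicate 2 and 168834 CPM in replicate 1. Of 5 keratinocyte markers, Krt10 had 18 reads in replicate 2 and 9 in replicate 1 and the other 4 had 0 in both libraries. With the length trend removed, 8 slow fibre and 7 tendon markers were still higher and 5 blood markers lower. Endothelial markers then had 2 lower and 0 higher, and fibroblast markers 1 lower and 3 higher. Macrophage markers had 0 lower and 0 higher, and skeletal muscle markers 2 lower and 3 higher. Among all genes tested that way, 5.47% were lower and 7.51% higher.

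Efr3a and Atxn2 had the log2 ratios nearest the members' median of -1.32 among 3890 protein-coding genes at a mean of 20 CPM or more, and 101 of those genes lay within 0.1 of it. Efr3a had 55 reads in replicate 2 and 95 in replicate 1, and Atxn2 had 23 in replicate 2 and 40 in replicate 1. With 2 libraries such a likeness is a position on a line and no more.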

How the data were processed

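Long-read RNA sequencing libraries were measured as counts per transcript model. The authors deposited whole-number counts without normalization. Per the notes deposited with them, the assembly was mm10 and the annotation GENCODE M21, and per the file headers the models came from TALON. The sources used here name no platform, aligner or read filter. Exon numbers and lengths in the count tables equalled those in the deposited models for all 94598 models in replicate 2 and 75228 in replicate 1.

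Gene counts were sums over models with the gene's name, and CPM used mouse reads without spike-ins. Chains were matched between libraries by chromosome, strand and introns. Complete chains were those deposited as annotated (Known), as new combinations of annotated splice sites (NIC) or with new sites (NNC) in either library. A chain of the NIC or NNC class need not reach the 5′ end of the gene. The most read complete chain was compared with the others by Fisher's exact test for genes with 20 or more complete reads in each library, with Benjamini-Hochberg adjustment. The length trend was a lowess fit with a fraction of 0.4 on log2 length of that chain. Groups came from the labels, and no sample was left out. Alternatives changed the scaling, classes, count minimum, threshold, test and length trend.

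Named genes were all 8 members, the 4 most read genes of each list, chains outside the annotation with 5 or more reads (at most 3 a gene) and the 3 genes nearest the members' median, 1 of which is not reported here. Fasn, Lep, Retn, Pparg, Ucp1, Slc4a1, Lipe, Gpihbp1 and Myl3 were named after their values were seen, and of marker lists fewer than 4 genes are given. The members and lists were chosen with earlier results of these data known. Fisher's exact tests were checked on simulated counts without spread between libraries, which cannot show how the calls hold under such spread. Steps ran in Python 3.11.15 with scipy 1.17.1 and statsmodels 0.14.6 on tables held in pandas 2.3.3. R 4.3.3 gave dispersion and TMM (edgeR 4.0.16) and size factors (DESeq2 1.42.0).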

Additional observations from a re-analysis of the deposited data

How the results depend on the processing

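Adipoq, Cfd and Scd1 were lower in replicate 2 under every scaling, count minimum, class, threshold and length setting tried, and Scd1 also by edgeR's exact test. Members called lower numbered 5 in the report, 4 with TMM, DESeq2 size factors, spike-in scaling, no count minimum, 20 or more reads, an adjusted p of 0.01 or the length trend removed, 3 over complete chains or annotated models alone (Plin1 was then below the count minimum, and Plin4 too over annotated models), and 1 by edgeR's exact test. Members called higher numbered 1 in the report, 2 with TMM, DESeq2 size factors, 20 or more reads or the length trend removed, 3 with spike-in scaling, and 0 over complete chains, annotated models, no count minimum, an adjusted p of 0.01 or edgeR's exact test. Signs turned for Fabp4 with the length trend removed (-0.18) and over annotated models for Lpl (-0.14) and Cd36 (-0.32), none of them past the threshold. Genes called in all numbered 2311 of 8892, against 2125 with TMM, 2128 with DESeq2 size factors and 2435 with spike-in scaling. They numbered 2034 of 7634 over complete chains and 2067 of 6766 over annotated models. With no count minimum they were 2035 of 15521, and with 20 or more reads 2286 of 6820. At an adjusted p of 0.01 there were 1556, with the length trend removed 1136 of 8752, and by edgeR's exact test 15. The share of calls that were higher in replicate 2 was 42.5%, against 59.1% with TMM, 59.9% with DESeq2 size factors and 84.3% with spike-in scaling. It was 57.8% with the length trend removed, 28.4% over annotated models, 43.6% over complete chains and 73.3% by edgeR's exact test. With no count minimum it was 43.2%, with 20 or more reads 43.4%, and at an adjusted p of 0.01 45.5%. The background for the member counts therefore moved with the setting too. Relative to all mouse reads, these scalings shift every log2 ratio by 0.17 (TMM), 0.18 (DESeq2) and 0.54 (spike-ins). Genes whose leading chain share differed numbered 24, against 12 of 1725 over annotated chains and 515 of 4014 over all read classes, where 1 member, Cd36, was called. For Lpl-201 the difference in share took the other sign over all read classes, with a mean share of 84.6%. In 3 more cases another chain led, and the sign is that of its own share: Cd36-201 over annotated chains (mean 41.1%), and over all read classes incomplete chains of Fabp4 (58.5%) and Cd36 (22.9%). Other causes were not tested. Leaving out a replicate leaves the other library's level. For Adipoq the range was 11.6 to 45.8 CPM, for Cfd 74.5 to 271 CPM, for Plin1 0.642 to 10.3 CPM, for Plin4 27.6 to 47.7 CPM, for Scd1 2.57 to 64.5 CPM, for Fabp4 109 to 144 CPM, for Lpl 313 to 327 CPM and for Cd36 85.1 to 118 CPM. No paired analysis was possible because the samples form 1 group. Depth limits Plin1 and Scd1 most, with 1 and 4 reads in replicate 2.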

Other observations

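Reads at unannotated loci lay opposite several of the genes. On the strand opposite Cd36 there were 23 reads in replicate 2 and 4 in replicate 1, and opposite Plin1 there were 12 in replicate 2 and 6 in replicate 1. Opposite Cfd there were 5 in replicate 2 and 1 in replicate 1. Opposite Lpl there were 2 in replicate 2 and 0 in replicate 1, and opposite Fabp4 1 in replicate 2 and 0 in replicate 1. Opposite Plin1 they outnumbered the gene's own reads in replicate 2, which numbered 1. None lay opposite Adipoq, Plin4 or Scd1. Over the whole libraries, antisense reads were 3.79% of mouse reads in replicate 2 and 2.10% in replicate 1. Without a statement that counting used strand, such reads and unspliced reads of the gene on the other strand cannot be told apart.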
